A study of Mus musculus with 18 samples.

Results

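The 31 genes described here are those of glucose uptake and glycolysis, the pentose phosphate pathway and the response to low oxygen. They were chosen by symbol, through their Ensembl gene IDs, and all 31 were found among the 48794 rows of the count table. On GRCm38, whole genes from first to last exon, those with the most to show below include Slc2a1 (chr4:119108711-119137983), Hk3 (chr13:55005985-55021385), Pfkp (chr13:6579768-6648777), Pfkfb4 (chr9:108991778-109032228), Ldha (chr7:46841475-46855627), Slc16a1 (chr3:104638668-104658462), G6pdx (chrX:74409483-74429194), Ndrg1 (chr15:66929318-66969640) and Hif1a (chr12:73901375-73947530). By role, 12 act in glucose uptake and upper glycolysis, 8 in lower glycolysis and the making and export of lactate, 6 in the pentose phosphate pathway and 5 in the hypoxia response. All 31 passed the filter on low counts, which kept 13177 genes. The RNA came from macrophages that had been cultured out of marrow of male C57BL/6 mice, whose age the labels do not give. Marrow cells were matured over 7 days with rhM-CSF, a growth factor that drives macrophage development, at 50 ng/ml. All cells were then kept for 24 h with rhM-CSF at 10 ng/ml. Control cells received nothing more. The IL4_IL13 cells also received rmIL-4 and rmIL-13, which drive alternative activation, each at 10 ng/ml, and the IL4_IL13_TNFa cells received both with rmTNFa, an inflammatory cytokine, at 10 ng/ml. No TNFa group without IL-4 and IL-13 is described here, so a change with added TNFa is a change in cells that also received both other cytokines. The cells were cultured in vitro, outside the marrow and its oxygen tension. Each group held 6 libraries, numbered 1 to 6. Whether each library stands for its own mouse or dish is not stated in the labels, so the p-values reflect library-to-library spread, which may be technical.

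Glycolysis splits glucose into pyruvate in the cytosol and yields ATP without oxygen, and lactate dehydrogenase regenerates the NAD it needs. The pentose phosphate pathway draws glucose 6-phosphate off this route and makes NADPH, which macrophages use for oxidant production and biosynthesis, and ribose 5-phosphate for nucleotides. When oxygen is short, the prolyl hydroxylases that mark HIF-1alpha for destruction slow down, and HIF-1 then activates glycolytic and other genes. Macrophages activated by inflammatory signals are known for a high rate of glycolysis, and those activated by IL-4 for strong mitochondrial respiration.

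Library totals ran from 14793404 to 20056125 counts, and the 31 genes took between 0.686% and 1.18% of them. Their share had a median of 0.708% in Control, 0.891% in IL4_IL13 and 1.12% in IL4_IL13_TNFa. Control replicate 1 stood apart from the other 5 controls. It gave the 31 genes 1.09% of its counts, and 25 of the 31 lay above the mean of the other controls, with a median log2 ratio of 0.48. For 16 of the 31 it differed by over 1.5-fold in either direction. Of these Ndrg1 and Pfkfb4 were lower (log2 ratios of -2.04 and -0.95) and the rest higher. Each of the other 17 libraries, set against its own group in the same way, had 0 to 2 such genes. In the same library the summed level of 20 cell cycle genes was 4280 CPM (counts relative to library size, scaled by TMM) against 1108 to 2006 in the other controls. The summed level of 10 macrophage markers was 14338 against 21300 to 25309 CPM, and that of 10 stromal markers 20.3 against 109 to 648 CPM. Replicate 1 of IL4_IL13 lay on the same sides of its group, at 4265 against 2389 to 3490, 8446 against 8920 to 10181 and 58.1 against 98.5 to 576 CPM. In IL4_IL13_TNFa replicate 1 did so for cell cycle (655 against 454 to 634) and stromal genes (60.1 against 71.5 to 372), but not for macrophage markers (8775 against 8366 to 9176). The part of these differences in the results was not tested. Where a call of one of the 31 or of another named gene begins or ends without this library, or a called value moves by over 1.5 times, both values are given. Counts of called genes are over all 18 libraries unless stated.

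**Figure D1:**
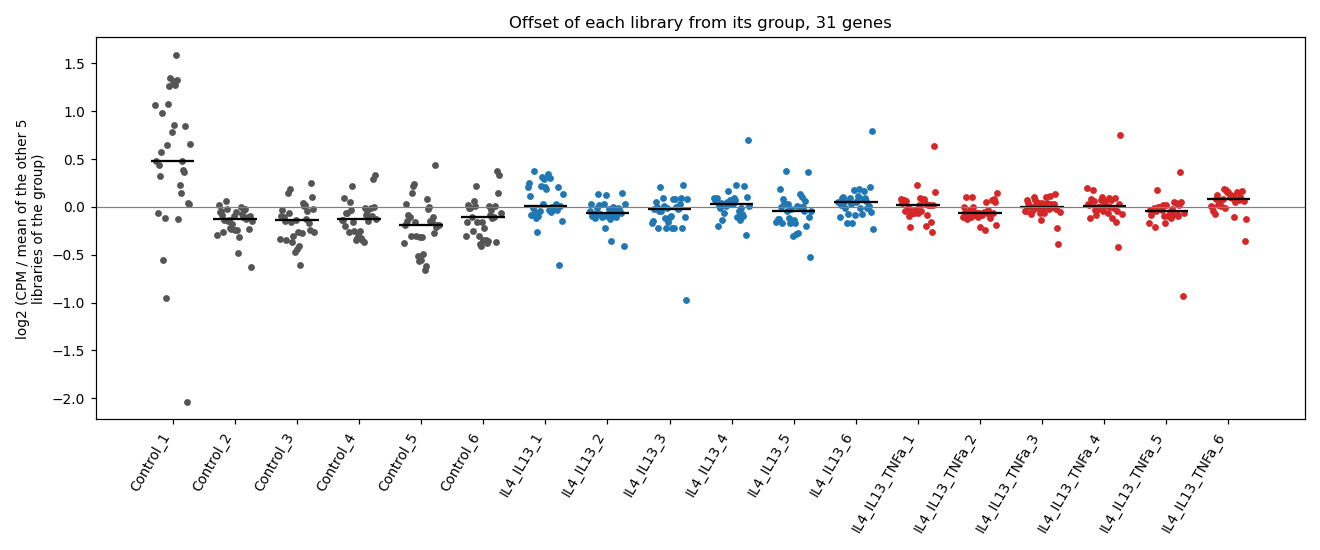
Offset of each library from its own group. Each point is 1 of the 31 genes, the y axis is the log2 ratio of its CPM to the mean of the other 5 libraries of the group, and black lines are medians. The median of Control replicate 1 is 0.48, while those of the other 17 libraries lie between -0.18 and 0.08.

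Markers of the labelled cell type were present in every group but lower in both cytokine groups. The summed level of 10 macrophage markers was 14338 to 25309 CPM in Control, 8446 to 10181 CPM in IL4_IL13 and 8366 to 9176 CPM in IL4_IL13_TNFa. The 10 stromal markers summed to 58.1 to 576 CPM in IL4_IL13 and 60.1 to 372 CPM in IL4_IL13_TNFa. The 8 dendritic markers summed to 1.36 to 4.19 CPM in Control, 2.77 to 6.74 in IL4_IL13 and 35 to 37.9 in IL4_IL13_TNFa. The 10 neutrophil markers summed to 0.818 to 3.14, 4.09 to 6.62 and 12.8 to 18 CPM in the same order, with Ly6g at 0 counts in all 18 libraries. Lymphocyte markers reached at most 3.13 CPM and erythroid markers at most 0.651 CPM, with Cd3d, Nkg7 and the globins at 0 throughout. The cell cycle list summed to 2389 to 4265 CPM in IL4_IL13 and 454 to 655 CPM in IL4_IL13_TNFa. The macrophage, dendritic, neutrophil and cell cycle sums thus moved with groups compared below, the macrophage sum between Control and both cytokine groups without overlap, and their part in the results was not tested. In RNA from whole cultures, fewer cells of a type and less RNA per cell cannot be told apart.

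More of the 31 genes rose than fell in each comparison, while in the hypoxia group more fell than rose. Against Control, IL4_IL13 raised 16 of the 31 and lowered 8, by edgeR's quasi-likelihood test at an adjusted p of 0.05. Over all genes tested 29.3% were called higher and 29.7% lower. The median log2 fold change of the 31 was 0.22, against -0.00 over all genes tested. Without Control replicate 1 the counts were 19 higher and 8 lower, beside 35.5% and 32.5% of all genes. Adding TNFa to both cytokines raised 16 and lowered 5, beside 30.3% and 29.3% of all genes, with a median of 0.45 against 0.00. Without Control replicate 1, 20 were higher and 6 lower, beside 33.3% and 32.1% of all genes. That library belongs to neither group and enters this contrast only through the filter, the scaling, the shared estimate of the spread and the adjustment. For the 3 cytokines against Control, 20 were higher and 7 lower, beside 36.4% and 37.3% of all genes, with a median of 0.80 against -0.02. That count became 24 higher and 7 lower without Control replicate 1, beside 39.0% and 38.7% of all genes. The 3 comparisons share their groups, so their results are not independent of each other.

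**Figure D2:**
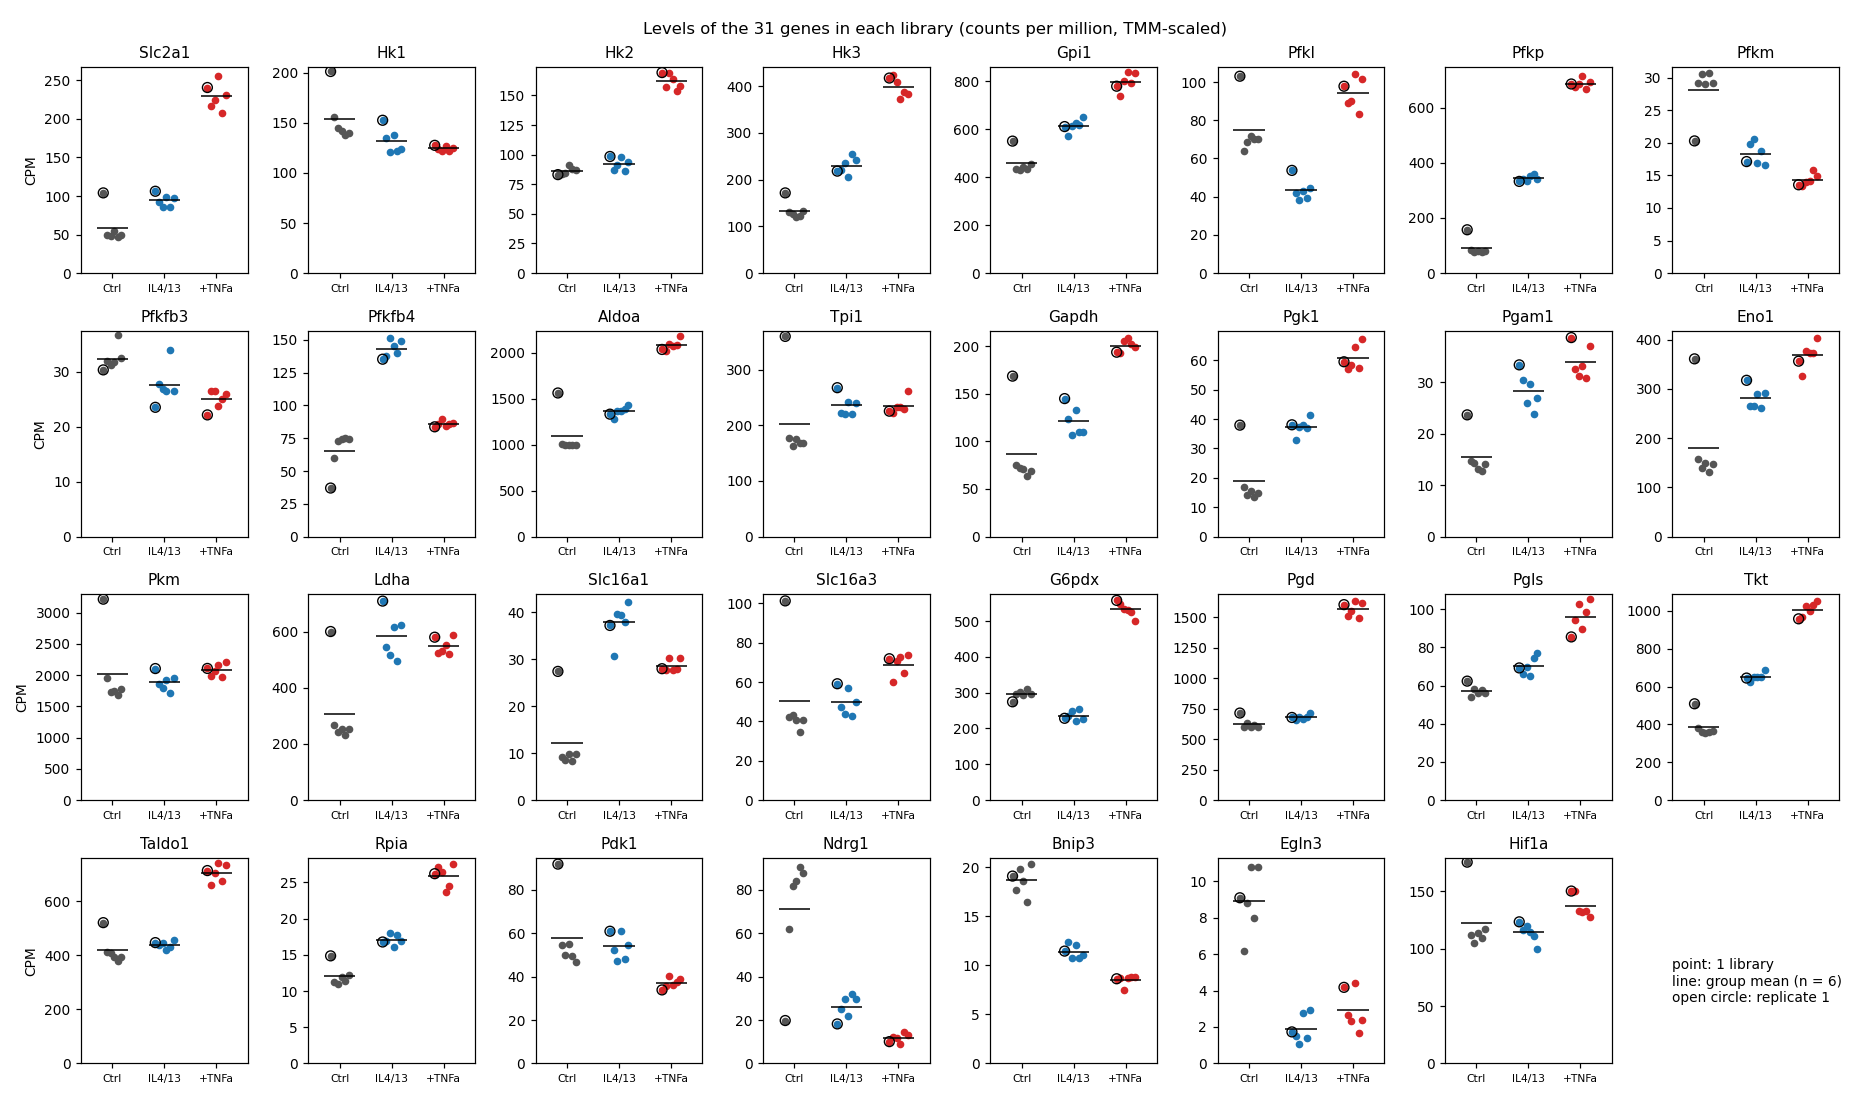
Level of each of the 31 genes in each of the 18 libraries. The y axes are CPM on library sizes scaled by TMM and start at 0, points are libraries, lines are group means (n = 6) and open circles mark replicate 1. Control replicate 1 lies above the other controls for genes such as Ldha and Pkm and below them for Ndrg1 and Pfkfb4.

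HIF-1 binds the letters ACGTG or GCGTG, and the promoters of 4 members are shown because they carry these letters while the genes moved in different directions. The 4 were chosen after their values were seen. The sequences are RefSeq's, on GRCm38.p6, 250 bases up to the transcription start, 5′ to 3′ on the gene's strand, and capitals mark the letters on either strand. Pfkp lies at chr13:6648772-6649021 (minus strand), Ldha at chr7:46845554-46845803 (plus strand), Bnip3 at chr7:138909507-138909756 (minus strand) and Egln3 at chr12:54203875-54204124 (minus strand).
Pfkp: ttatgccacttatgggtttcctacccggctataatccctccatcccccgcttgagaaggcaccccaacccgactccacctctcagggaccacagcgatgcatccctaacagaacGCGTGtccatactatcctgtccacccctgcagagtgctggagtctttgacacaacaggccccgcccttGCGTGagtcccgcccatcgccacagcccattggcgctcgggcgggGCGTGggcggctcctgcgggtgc
Ldha: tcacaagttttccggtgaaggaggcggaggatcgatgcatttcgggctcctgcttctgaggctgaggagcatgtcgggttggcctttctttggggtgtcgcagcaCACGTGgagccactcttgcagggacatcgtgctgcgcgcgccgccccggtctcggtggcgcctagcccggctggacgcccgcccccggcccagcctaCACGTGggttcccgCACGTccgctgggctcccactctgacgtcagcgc
Bnip3: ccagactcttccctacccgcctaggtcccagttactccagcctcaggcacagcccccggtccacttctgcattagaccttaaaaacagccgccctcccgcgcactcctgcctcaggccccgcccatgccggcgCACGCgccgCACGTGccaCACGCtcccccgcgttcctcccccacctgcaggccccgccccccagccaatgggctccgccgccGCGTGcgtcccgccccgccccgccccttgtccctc
Egln3: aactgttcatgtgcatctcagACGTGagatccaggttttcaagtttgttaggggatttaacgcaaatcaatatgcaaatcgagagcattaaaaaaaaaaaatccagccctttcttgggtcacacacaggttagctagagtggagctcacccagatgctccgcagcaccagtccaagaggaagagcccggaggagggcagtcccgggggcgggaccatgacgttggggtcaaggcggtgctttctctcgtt

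Counting a palindromic CACGTG once on each strand, the stretch of Pfkp held 3 matches, that of Ldha 5, that of Bnip3 5 and that of Egln3 1. Over the full windows of the RefSeq table, 250 bases before to 50 after the start, 28 of the 30 members with a window held at least 1 match in any of their windows (93.3%), against 46.7% of 27025 genes. For ACGTG alone the shares were 60% and 21.8%, and for 3 or more matches 33.3% and 10.2%. The windows of the members also held more CG dinucleotides, with a median of 21 against 7 over all windows, and these letters contain CG. The 4 genes whose windows are shown rose (Pfkp with all 3 comparisons, Ldha with both against Control) or fell (Bnip3 with all 3, Egln3 with both against Control). A match is a description of the letters and says nothing of binding in these cells.

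In glucose uptake and hexose phosphorylation, the glucose transporter gene Slc2a1 and the hexokinase gene Hk3 rose in all 3 comparisons, Hk2 with added TNFa, and Hk1 fell against Control. Slc2a1 (GLUT1) ran from 47.1 to 104 CPM in Control with a median of 49.2, from 85.7 to 106 with a median of 94.5 in IL4_IL13, and from 208 to 256 with a median of 227 in IL4_IL13_TNFa. The highest control, replicate 1, lay within the IL4_IL13 range, and the other 5 ended at 54.2. All IL4_IL13_TNFa libraries lay above all others. The log2 fold change was 0.68 ± 0.16 (SE, adjusted p = 0.00118) with IL4_IL13, or 0.93 without Control replicate 1, and 1.28 ± 0.16 (adjusted p = 1.13e-06) with added TNFa.

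The hexokinases trap glucose in the cell as glucose 6-phosphate. Hk3 ran from 119 to 172 CPM in Control with a median of 128, from 205 to 256 in IL4_IL13 with a median of 228 and from 373 to 425 in IL4_IL13_TNFa with a median of 399, with no overlap between any 2 groups. Its log2 fold change was 0.78 ± 0.08 (adjusted p = 1.02e-07) and then 0.80 ± 0.08 (adjusted p = 4.31e-08). Hk2, the inducible isozyme, stood at 83.2 to 91.2 CPM in Control with a median of 86.1 and at 86.1 to 98.5 in IL4_IL13 with a median of 92.5. These groups overlapped, and the difference of 0.10 ± 0.04 was not called (adjusted p = 0.0546), though it was with the replicate numbers as a block (adjusted p = 0.0391) and without the filter on low counts (adjusted p = 0.0477). The DESeq2 Wald test called it too (adjusted p = 0.0475). So did the fits without Control replicate 4, IL4_IL13 replicate 2 or 5, or IL4_IL13_TNFa replicate 5 (adjusted p between 0.0228 and 0.0498). With added TNFa Hk2 reached 154 to 169 CPM with a median of 161, above every other library, a log2 fold change of 0.81 ± 0.04 (adjusted p = 8.02e-12). Hk1, the constitutive isozyme, had medians of 144, 129 and 124 CPM in the 3 groups. It fell by 0.22 ± 0.08 on the log2 scale with IL4_IL13 (adjusted p = 0.0256), where the groups overlapped, and its change with added TNFa of -0.09 was not called (adjusted p = 0.381). Leaving out Control replicate 1 moved the first of these to -0.12 (adjusted p = 0.0435), and leaving out IL4_IL13 replicate 3, 5 or 6 ended the call (adjusted p = 0.0643, 0.0602 and 0.0573). The call also ended without the filter on low counts (-0.16, adjusted p = 0.201) and with only the libraries compared (adjusted p = 0.0581). With library totals alone Hk1 was called lower with added TNFa (-0.29, adjusted p = 0.00359).

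Per kilobase of exon, Hk3 was the most abundant of the 3 hexokinase mRNAs in each group, counting merged exons, at 36.4, 62.4 and 108 CPM per kb on average. Its share of the family, taken as counts per kilobase within each library, was 52.7% ± 1.71 in Control, 66.7% ± 3.09 in IL4_IL13 and 72.2% ± 1.08 in IL4_IL13_TNFa (SD, n = 6). The share of Hk1 was 26.1% ± 1.29, 16.6% ± 1.91 and 9.73% ± 0.435, with no overlap between groups. The order of Hk3 and Hk1 in Control depends on the length used. Per kilobase of the principal transcript Hk3 was 42.7% ± 1.24 there and Hk1 41.0% ± 1.58. On counts not divided by length Hk1 led in Control, with 41.0% ± 1.92 against 35.7% ± 1.34. In both cytokine groups Hk3 had the largest mean share by each of these measures. By an exact two-sided permutation test over libraries, the Hk1 share differed in each comparison (adjusted p = 0.00273, from the smallest p that 6 against 6 allows, 0.00216). The adjustment ran over 24 tests, of 8 shares in 3 comparisons. The Hk2 share was 21.2% ± 2.52, 16.6% ± 1.34 and 18.1% ± 0.756, and its groups overlapped. It passed in all 3 comparisons (exact permutation, adjusted p = 0.00742, 0.039 and 0.0203), but on counts not divided by length its difference between IL4_IL13_TNFa and Control turned to 0.305 percentage points higher, and per kilobase of the principal transcript, a length chosen after the data were seen, it was -0.486 and not called (adjusted p = 0.63). Paired by replicate number, both differences from Control missed the threshold (exact sign-flip test, adjusted p = 0.0625). The gain with added TNFa was lost in 9 of the 12 fits that left out 1 library of either group, namely IL4_IL13 replicates 2, 3, 5 and 6 and IL4_IL13_TNFa replicates 1, 3, 4, 5 and 6. The Hk2 mRNA level thus rose with added TNFa while its share of the hexokinase counts moved by 1.46 percentage points.

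Phosphofructokinase 1 commits glucose to glycolysis, and its 3 subunit genes moved in different directions. Pfkp, the platelet-type subunit, rose the most of the 31 genes against Control, Pfkm, the muscle-type subunit, fell in all 3 comparisons, and Pfkl, the liver-type subunit, fell with IL4_IL13 and rose with added TNFa. Pfkp ran from 75.1 to 157 CPM in Control with a median of 79.6, where replicate 1 held the 157 and the other 5 ended at 85.5. It ran from 332 to 360.3 in IL4_IL13 with a median of 339.9, and from 668 to 713 in IL4_IL13_TNFa with a median of 685. No 2 groups overlapped. The rise was 3.71-fold with IL4_IL13 (log2 fold change 1.89 ± 0.14, adjusted p = 2.03e-09; 4.33-fold without Control replicate 1) and a further 2.00-fold with added TNFa (1.00 ± 0.14, adjusted p = 3.92e-06). Exons of Pfkp share 748 bases with Pitrm1 on the other strand, and whether the counting used strand is not given in the sources used here. Pitrm1 itself had medians of 48.7, 69.8 and 76.5 CPM in the 3 groups.

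Pfkl ran from 64.1 to 103 CPM in Control, with a median of 70.1 and the 103 again in replicate 1. It lay between 38.2 and 53.8 CPM in IL4_IL13 with a median of 42.5, below every control, and between 83.4 and 104 CPM in IL4_IL13_TNFa with a median of 94.0. The log2 fold change was -0.78 ± 0.11 (adjusted p = 5.15e-06) with IL4_IL13 and 1.12 ± 0.11 (adjusted p = 3.3e-08) with added TNFa. For the 3 cytokines against Control it was 0.34 ± 0.10 (adjusted p = 0.00697), a call that ended when libraries were scaled by their totals alone (0.09, adjusted p = 0.431). Pfkm stood at 20.3 to 30.7 CPM in Control, 16.5 to 20.6 in IL4_IL13 and 13.4 to 15.8 in IL4_IL13_TNFa, with medians of 29.2, 17.9 and 14.1. Its lowest control was replicate 1, within the IL4_IL13 range, and the other 5 began at 29.0. It fell by 0.62 ± 0.09 on the log2 scale with IL4_IL13 (adjusted p = 1.01e-05) and by 0.35 ± 0.09 with added TNFa (adjusted p = 0.00272).

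Within the phosphofructokinase family the share of Pfkp was higher in both cytokine groups than in Control. Per kilobase of merged exons, Pfkl was 42% ± 2.5 of the family in Control, Pfkm 32.5% ± 7.03 and Pfkp 25.5% ± 4.92 (SD, n = 6). In IL4_IL13 Pfkp was 68.1% ± 1.67, Pfkl 17.3% ± 2.16 and Pfkm 14.6% ± 1.41. With added TNFa Pfkp was 73.6% ± 0.839, Pfkl 20.3% ± 1.11 and Pfkm 6.16% ± 0.475. The level of these shares depends on the length used: merged exons of Pfkp span 13401 bases and its principal transcript 4145. Per kilobase of the principal transcript Pfkp was 42% ± 5.27 in Control, 82.1% ± 1.3 in IL4_IL13 and 84.6% ± 0.641 in IL4_IL13_TNFa, and already had the largest mean share in Control. The shares of Pfkp and Pfkm per kilobase of merged exons did not overlap between any 2 groups (exact permutation, adjusted p = 0.00273 in each comparison). In Control replicate 1 Pfkp was already 35.3% and Pfkm 18.3%, while the median controls were at 23.5% and 35%. The gain of 2.94 percentage points in the Pfkl share with added TNFa passed (exact permutation, adjusted p = 0.0203) but its groups overlapped, and it did not pass on counts not divided by length (adjusted p = 0.129), per kilobase of the principal transcript (adjusted p = 0.0949) or paired by replicate number (exact sign-flip test, adjusted p = 0.0625).

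**Figure D3:**
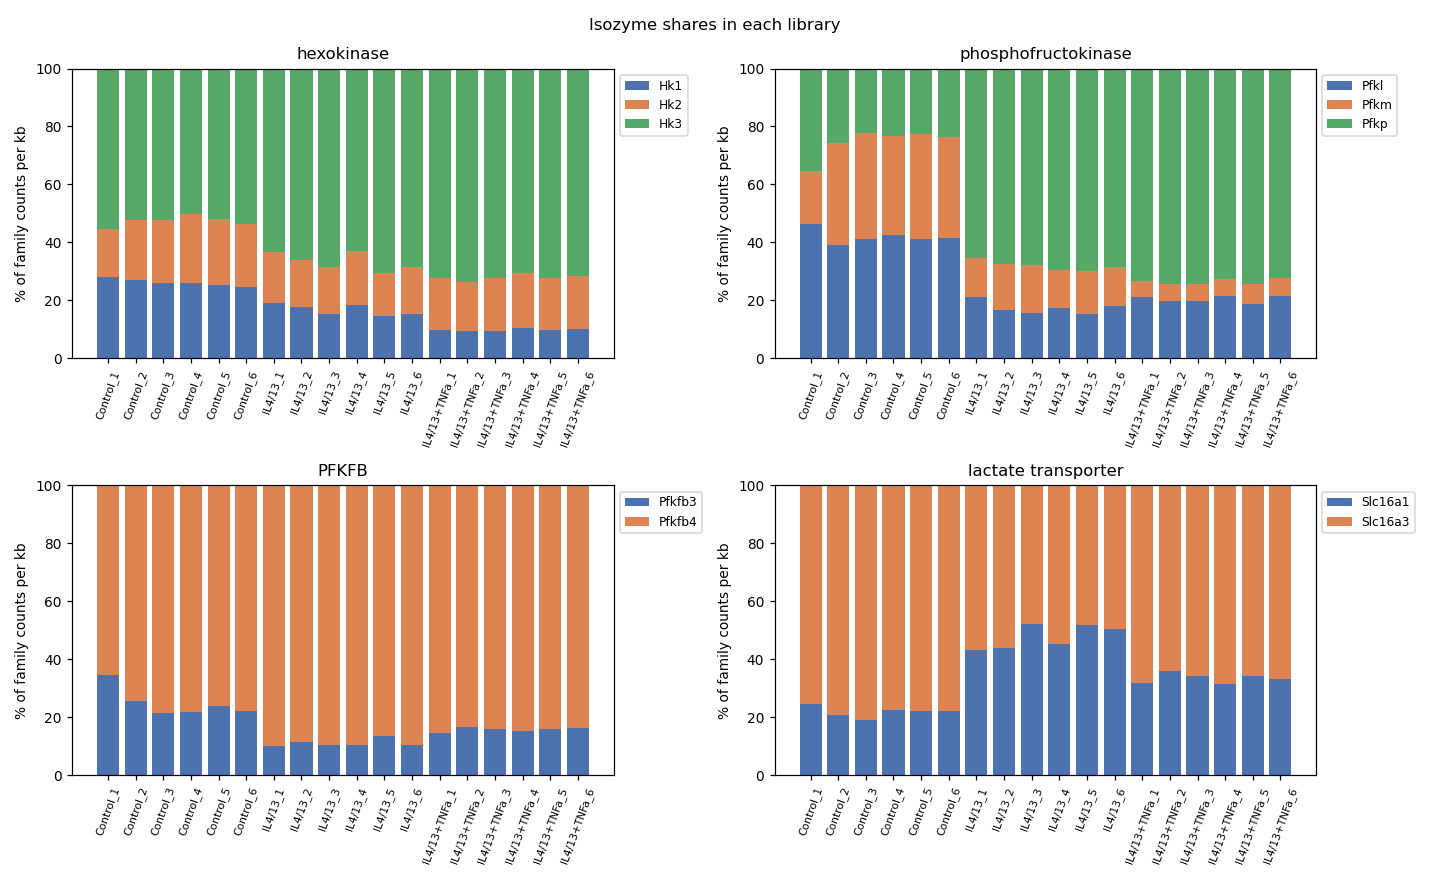
Share of each isozyme in its family in each of the 18 libraries. The y axis is the percent of the family's counts per kilobase of exon, and each bar is 1 library, with its group and replicate number on the x axis. The PFKFB family here holds Pfkfb3 and Pfkfb4 alone, and the lactate transporters Slc16a1 and Slc16a3 alone, without Slc16a7. Pfkp rises from a mean of 25.5% in Control to 68.1% in IL4_IL13, and Slc16a1 from 21.9% to 47.8% of its pair.

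Fructose 2,6-bisphosphate, the main activator of phosphofructokinase 1, is made and removed by the PFKFB enzymes. Pfkfb4 rose with IL4_IL13 and fell back with added TNFa, and Pfkfb3 was lower against Control in both. Pfkfb4 ran from 37.0 to 75.1 CPM in Control with a median of 73.7, from 135 to 151 in IL4_IL13 with a median of 143 and from 83.7 to 89.8 in IL4_IL13_TNFa with a median of 86.0. The 37.0 was Control replicate 1, and no 2 groups overlapped. Its log2 fold change was 1.12 ± 0.12 (adjusted p = 2.71e-07) with IL4_IL13, -0.73 ± 0.12 (adjusted p = 3.2e-05) with added TNFa and 0.39 ± 0.12 (adjusted p = 0.00643) for the 3 cytokines against Control. The last was 0.14 and not called with library totals alone (adjusted p = 0.291). Pfkfb3 had medians of 31.9, 26.7 and 25.5 CPM and fell by 0.24 ± 0.07 on the log2 scale with IL4_IL13 (adjusted p = 0.011), with overlapping groups; without the filter on low counts this was not called (adjusted p = 0.107). Its change with added TNFa, -0.14, was not called (adjusted p = 0.125). It was called lower with library totals alone (-0.34, adjusted p = 0.000514) and without IL4_IL13 replicate 1 (-0.18, adjusted p = 0.0434). Of the counts per kilobase of the pair, Pfkfb3 took 24.9% ± 5.0 in Control, 11.0% ± 1.33 in IL4_IL13 and 15.8% ± 0.691 in IL4_IL13_TNFa, with no overlap (exact permutation, adjusted p = 0.00273 in each comparison).

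The remaining upper glycolysis genes are Gpi1, Aldoa and Tpi1, which carry the hexose to triose phosphates. Gpi1 rose in both steps, from a median of 440.2 CPM in Control to 616 in IL4_IL13 and 797 in IL4_IL13_TNFa, with no overlap between groups and log2 fold changes of 0.42 ± 0.06 and 0.37 ± 0.06 (adjusted p = 4.85e-06 and 1.44e-05). Of the windows of 50 bases in its principal transcript 25.3% also occur in transcripts of other genes, so its level is uncertain. Aldoa had medians of 998, 1369.8 and 2083 CPM. In Control replicate 1 it stood at 1564 CPM, above the whole IL4_IL13 range of 1286 to 1438, while the other 5 controls lay between 995 and 1007. It rose by 0.32 ± 0.09 (adjusted p = 0.00607), or 0.45 without that library, and then by 0.61 ± 0.09 (adjusted p = 1.23e-05). Tpi1 ran from 163 to 359.9 CPM in Control with a median of 172, and from 220.0 to 268 in IL4_IL13 with a median of 232. Its difference of 0.22 ± 0.15 was not called (adjusted p = 0.222). Without Control replicate 1, which held the 359.9, the groups did not overlap and Tpi1 was 0.47 higher (adjusted p = 1.3e-07). With added TNFa it ran from 223 to 261 CPM, a difference of -0.01 ± 0.15 (adjusted p = 0.958). As a group, 6 of the 12 genes of uptake and upper glycolysis rose with IL4_IL13 and 4 fell, 7 rose and 2 fell with added TNFa, and 8 rose and 3 fell for the 3 cytokines against Control, beside 29.3% and 29.7%, 30.3% and 29.3%, and 36.4% and 37.3% of all genes called higher and lower.

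**Figure D4:**
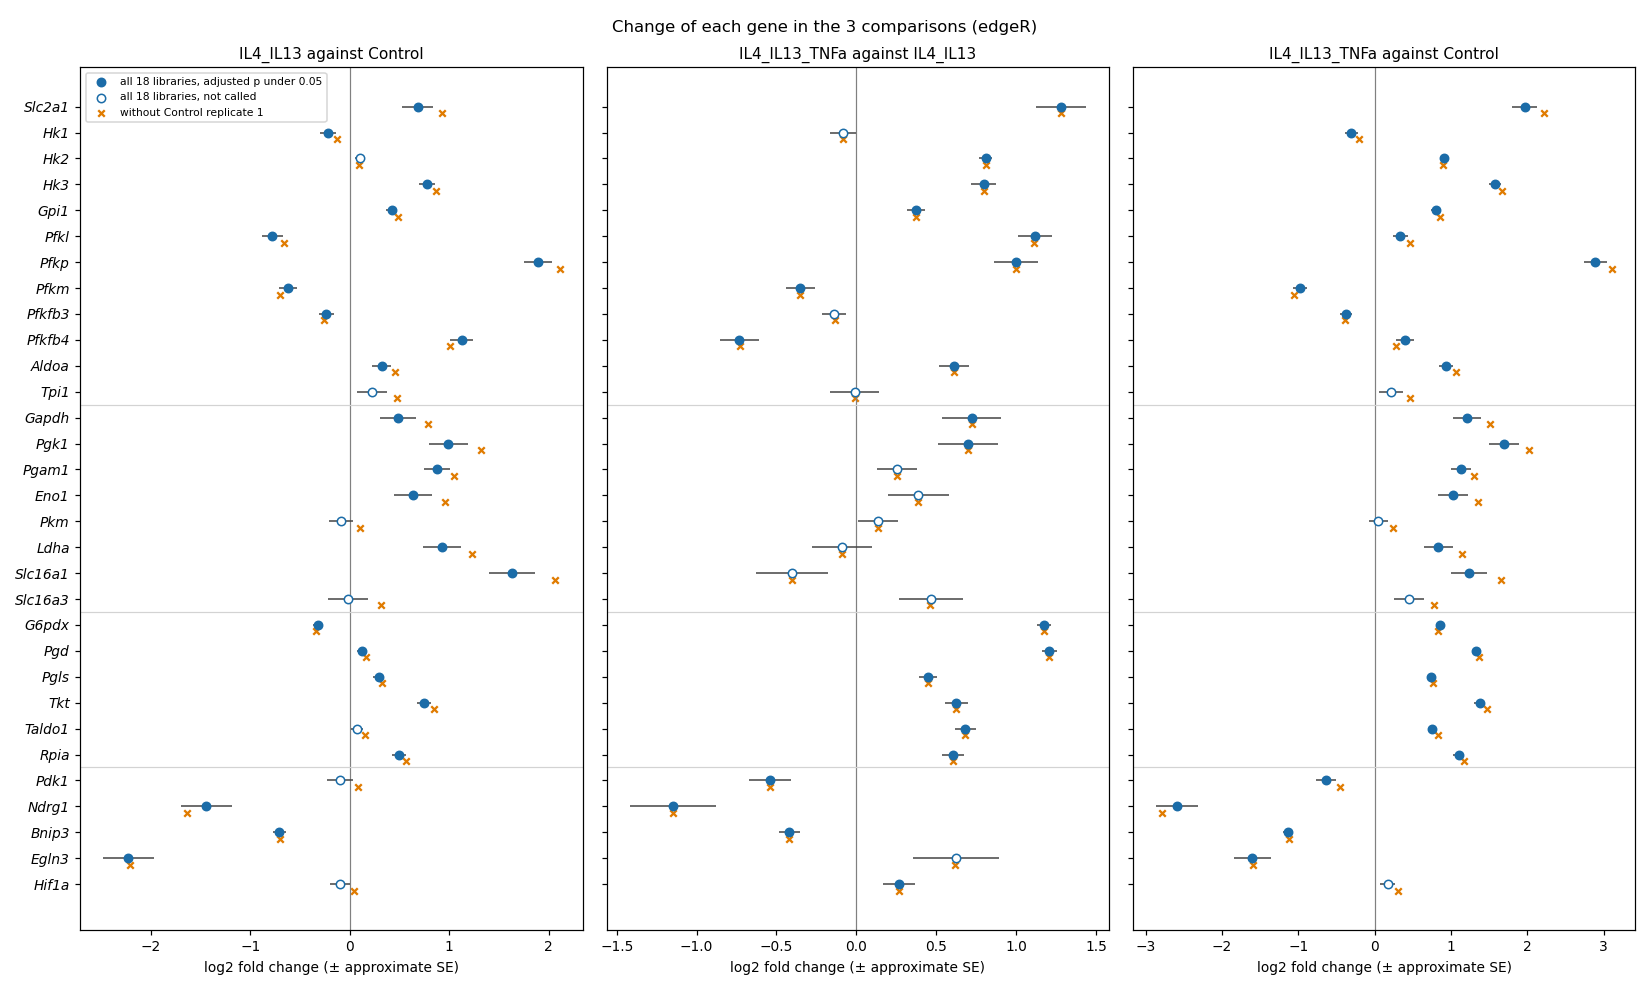
Log2 fold change of each of the 31 genes in the 3 comparisons. Circles are the values over all 18 libraries (filled where the adjusted p is under 0.05) with approximate standard errors, crosses the values without Control replicate 1, and grey lines part the 4 roles. Pfkp has the largest rise against Control, at 2.89 with the 3 cytokines, and Ndrg1 the largest fall, at -2.59.

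Lower glycolysis turns triose phosphates into pyruvate and returns the ATP, and 6 of its 8 genes here, counting lactate handling, rose with IL4_IL13 while none fell. With added TNFa 2 rose and none fell, or 6 rose and 1 fell without Control replicate 1. For the 3 cytokines against Control 6 rose, or all 8 without that library. Of all genes 29.3%, 30.3% and 36.4% were called higher in these comparisons, and 29.7%, 29.3% and 37.3% lower. Without Control replicate 1 the shares were 35.5%, 33.3% and 39.0% higher, and 32.5%, 32.1% and 38.7% lower. Reads of several of these genes can match copies as well. Copies found by name held at most 0.685% of the counts of their gene, for Pgk1-rs7 and Pgk1. Of the windows of 50 bases in the principal transcript, 82.5% of those of Gapdh, 72.2% of Eno1, 68.0% of Pgk1, 41.5% of Pgam1, 34.4% of Pkm and 17.1% of Ldha also occur in transcripts of other genes. Outside lower glycolysis this held for 62.5% of Bnip3, 25.3% of Gpi1, 17.1% of Pfkp, 14.6% of Ndrg1, 13.9% of Aldoa, 12.4% of Taldo1 and 10.7% of G6pdx. The sources used here do not give how reads that match several genes were counted, and the levels of these genes are therefore uncertain.

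Gapdh ran from 64 to 169 CPM in Control with a median of 71.6, from 106 to 145 in IL4_IL13 with a median of 117 and from 193 to 209 in IL4_IL13_TNFa with a median of 201. Its 169 was Control replicate 1, above all IL4_IL13 libraries, and the other 5 ended at 75.7. The rise with IL4_IL13 was 0.48 ± 0.18 (adjusted p = 0.0317), or 0.79 without Control replicate 1 (adjusted p = 4.28e-09). It was not called without any one of Control replicates 2 to 6 or without IL4_IL13 replicate 1 or 4, with adjusted p between 0.0587 and 0.0716, nor without the filter on low counts (adjusted p = 0.0966) or with only the libraries compared (adjusted p = 0.0624). With added TNFa Gapdh rose by 0.72 ± 0.18 (adjusted p = 0.00244).

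Pgk1, which makes the first ATP of the lower part, had a median of 15.1 CPM in Control, 37.6 in IL4_IL13 and 58.9 in IL4_IL13_TNFa. Its range in Control was 13.4 to 37.9 CPM, in IL4_IL13 33.0 to 41.3 and in IL4_IL13_TNFa 57.1 to 67.3. Only Control replicate 1 lay within the IL4_IL13 range. The log2 fold changes were 0.99 ± 0.19 (adjusted p = 0.000303; 1.32 without that library) and 0.70 ± 0.19 (adjusted p = 0.00394).

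Pgam1 and Eno1, the mutase and enolase steps, had the same order of groups. Pgam1 had medians of 14.1, 28.3 and 32.8 CPM and Eno1 of 149, 278 and 373 CPM. They rose with IL4_IL13 by 0.88 ± 0.13 (adjusted p = 1.35e-05) and 0.64 ± 0.19 (adjusted p = 0.00818), or by 1.05 and 0.96 without Control replicate 1. With added TNFa their values of 0.26 ± 0.13 and 0.39 ± 0.19 were not called over all libraries (adjusted p = 0.0896 and 0.0877). Both were called without Control replicate 1 (adjusted p = 0.00606 and 5.23e-06), with the replicate block (adjusted p = 0.0102 and 0.043) and with only the libraries compared (adjusted p = 0.0176 and 3.49e-05). Each was higher with TNFa in 6 of 6 replicate numbers.

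Pkm, pyruvate kinase of muscle and most other tissues, was with Aldoa the most abundant of the 31 per kilobase, at 403, 379 and 416 CPM per kb on average. It ran from 1676 to 3217 CPM in Control, 1715 to 2106 in IL4_IL13 and 1966 to 2210.2 in IL4_IL13_TNFa, with medians of 1756, 1898 and 2083. The 3217 was Control replicate 1, and the next control stood at 1953. No comparison was called over all libraries (log2 fold changes of -0.09, 0.14 and 0.05, adjusted p = 0.559, 0.368 and 0.742). Without that library Pkm was 0.14 higher with added TNFa (adjusted p = 0.0235) and 0.23 higher for the 3 cytokines against Control (adjusted p = 0.000469). The counts are per gene and do not tell its splice forms apart.

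Ldha, the lactate dehydrogenase subunit that favours making lactate, ran from 229.9 to 600.2 CPM in Control with a median of 253. It ran from 495 to 709 in IL4_IL13 with a median of 581 and from 519 to 589 in IL4_IL13_TNFa with a median of 539.9. Control replicate 1, at 600.2, lay within the IL4_IL13 range, and the other 5 ended at 267. Ldha rose by 0.93 ± 0.19 with IL4_IL13 (adjusted p = 0.00045), or 1.23 without that library, and its -0.09 ± 0.19 with added TNFa was not called (adjusted p = 0.699).

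The 2 lactate transporter genes among the 31 were split. Slc16a1 (MCT1) ran from 8.21 to 27.4 CPM in Control with a median of 9.44, from 30.7 to 42.1 in IL4_IL13 with a median of 38.7 and from 27.6 to 30.4 in IL4_IL13_TNFa with a median of 27.9. No 2 groups overlapped, and Control replicate 1, at 27.4, lay just under the lowest IL4_IL13_TNFa library, at 27.6. It rose 3.11-fold with IL4_IL13 (log2 fold change 1.63 ± 0.23, adjusted p = 1.03e-05), or 4.17-fold without Control replicate 1. Its -0.40 ± 0.22 with added TNFa was not called (adjusted p = 0.133), and was without Control replicate 1 (adjusted p = 1.79e-05). It was also called with library totals alone (-0.61, adjusted p = 0.0231), limma voom (adjusted p = 0.0444) and only the libraries compared (adjusted p = 5.86e-05). Slc16a3 (MCT4), the exporter typical of glycolytic cells, had medians of 41.5, 48.4 and 71.2 CPM and was called in no comparison. Its values were -0.02 ± 0.20, 0.46 ± 0.20 and 0.45 ± 0.20 (adjusted p = 0.944, 0.0536 and 0.0519). Without Control replicate 1, which stood at 101 CPM against 34.8 to 43.1 in the other controls, it was higher in all 3 (0.31, 0.46 and 0.78; adjusted p = 0.00267, 2.96e-05 and 4.91e-08). With the replicate block, the 2 comparisons of IL4_IL13_TNFa were called (adjusted p = 0.0143 and 0.00679). The same 2 were called with the DESeq2 Wald test (adjusted p = 0.0343 and 0.0352) and limma voom (adjusted p = 0.0341 and 0.0118).

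Of the counts per kilobase of the pair, Slc16a3 took 78.1% ± 1.84 in Control, 52.2% ± 4.12 in IL4_IL13 and 66.6% ± 1.64 in IL4_IL13_TNFa (SD, n = 6). No 2 groups overlapped, and each comparison passed (exact permutation, adjusted p = 0.00273). This share did not set Control replicate 1 apart: all 6 controls lay between 75.5% and 80.9%. It leaves out Slc16a7, another gene of this transporter family and not among the 31. Slc16a7 had medians of 57.6 CPM in Control, 39.9 in IL4_IL13 and 24.5 in IL4_IL13_TNFa.

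In the pentose phosphate pathway all 6 genes rose with added TNFa and all 6 were higher for the 3 cytokines than in Control. With IL4_IL13 alone 4 rose, 1 fell and 1 was not called, or 5 rose and 1 fell without Control replicate 1. Of all genes 30.3% were called higher with added TNFa, 36.4% for the 3 cytokines against Control and 29.3% with IL4_IL13. With IL4_IL13 29.7% were called lower, and without Control replicate 1 35.5% were higher and 32.5% lower. G6pdx, the rate-limiting dehydrogenase that makes NADPH, ran from 275 to 309 CPM in Control with a median of 296, and from 222 to 255 in IL4_IL13 with a median of 232. It then reached 500.3 to 558 CPM in IL4_IL13_TNFa with a median of 532. IL4_IL13 libraries lay below all controls, and IL4_IL13_TNFa libraries above all others. It fell by 0.32 ± 0.04 on the log2 scale with IL4_IL13 (adjusted p = 4.68e-06) and rose 2.26-fold with added TNFa (1.18 ± 0.04, adjusted p = 7.51e-14). Its exons share 418 bases with Ikbkg on the other strand, which had medians of 106, 219.9 and 239.5 CPM.

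Pgd, the second enzyme that makes NADPH, ran from 596 to 714 CPM in Control, 661 to 713 in IL4_IL13 and 1491 to 1637 in IL4_IL13_TNFa, with medians of 608, 678 and 1578. The first 2 groups overlapped through Control replicate 1. Its rise of 0.12 ± 0.05 with IL4_IL13 (adjusted p = 0.0392) was 0.16 without that library (adjusted p = 0.000473), but was not called without any one of Control replicates 2 to 6 or of IL4_IL13 replicates 1, 3, 5 and 6 (adjusted p between 0.051 and 0.0867). It was not called with library totals alone (0.08, adjusted p = 0.165) or with a stricter filter on low counts (0.09, adjusted p = 0.0584). With added TNFa Pgd rose 2.31-fold (1.21 ± 0.05, adjusted p = 1.48e-13). Pgls, the lactonase between the 2 dehydrogenases, had medians of 56.8, 69.4 and 96.5 CPM with no overlap, and rose by 0.29 ± 0.06 and by 0.45 ± 0.06 (adjusted p = 0.000274 and 1.5e-06). Exons of Pgls share 776 bases with Fam129c on the same strand, which had medians of 1.81, 1.94 and 4.77 CPM.

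In the non-oxidative arm, which interconverts sugar phosphates with glycolysis, Tkt (transketolase) had medians of 362, 649 and 1012 CPM and Rpia, the ribose 5-phosphate isomerase, of 11.7, 16.9 and 26.3 CPM. For neither gene did any 2 groups overlap. Tkt rose by 0.75 ± 0.07 and by 0.63 ± 0.07 (adjusted p = 7.26e-08 and 4.61e-07), and Rpia by 0.50 ± 0.07 and by 0.60 ± 0.07 (adjusted p = 7.84e-06 and 3.98e-07). Taldo1 (transaldolase) ran from 380.5 to 521 CPM in Control, 421 to 455 in IL4_IL13 and 660.3 to 742 in IL4_IL13_TNFa. Its 0.07 ± 0.06 with IL4_IL13 was not called (adjusted p = 0.332) but was without Control replicate 1 (0.15, adjusted p = 0.00189), and with added TNFa it rose by 0.68 ± 0.06 (adjusted p = 2.22e-08).

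Of the 5 hypoxia genes, none rose with IL4_IL13 and 3 fell, 1 rose and 3 fell with added TNFa, and none rose and 4 fell for the 3 cytokines against Control, beside 29.3% and 29.7%, 30.3% and 29.3%, and 36.4% and 37.3% of all genes called higher and lower. Ndrg1, a hypoxia-induced gene linked to growth arrest and differentiation, fell the most for the 3 cytokines against Control, and Egln3 with IL4_IL13. Ndrg1 ran from 19.8 to 90.7 CPM in Control with a median of 82.9, from 18.2 to 32.1 in IL4_IL13 with a median of 27.3 and from 9.18 to 14.5 in IL4_IL13_TNFa with a median of 11.9. The 19.8 was Control replicate 1, and the other 5 controls began at 62.2, above all other libraries. It fell by 1.44 ± 0.26 on the log2 scale with IL4_IL13 (adjusted p = 0.000121) and by 1.15 ± 0.27 with added TNFa (adjusted p = 0.00131), which made it 6.04-fold lower for the 3 cytokines than in Control.

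Bnip3, a mitophagy receptor, lay between 16.5 and 20.3 CPM in Control, 10.7 and 12.4 in IL4_IL13 and 7.50 and 8.82 in IL4_IL13_TNFa, with medians of 18.8, 11.2 and 8.70. No 2 groups overlapped, and Control replicate 1 lay among the other controls. It fell by 0.71 ± 0.06 (adjusted p = 2.77e-08) and by 0.42 ± 0.07 (adjusted p = 2.28e-05) on the log2 scale. Of its transcript windows 62.5% occur in other genes, so its level is uncertain. Egln3, the prolyl hydroxylase PHD3 and itself a HIF target, ran from 6.16 to 10.8 CPM in Control, 1.05 to 2.91 in IL4_IL13 and 1.67 to 4.43 in IL4_IL13_TNFa, with medians of 8.95, 1.61 and 2.5. It had between 17 and 193 counts per library. It was 4.68-fold lower with IL4_IL13 (log2 fold change -2.23 ± 0.25, adjusted p = 6.15e-07), with all 6 libraries below all controls. Its 0.62 ± 0.27 with added TNFa was not called (adjusted p = 0.0528), and was with the replicate block (adjusted p = 0.0139). The DESeq2 Wald test called it too (adjusted p = 0.0334). So did the fits without Control replicate 2, IL4_IL13 replicate 4 or 6, or IL4_IL13_TNFa replicate 3, 5 or 6 (adjusted p between 0.0198 and 0.0492).

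Pdk1, a kinase that inhibits pyruvate dehydrogenase, had medians of 52.4, 53.4 and 37.0 CPM. Its -0.10 ± 0.13 with IL4_IL13 was not called (adjusted p = 0.52), and it fell by 0.54 ± 0.13 on the log2 scale with added TNFa (adjusted p = 0.00174), where no libraries overlapped. Hif1a, the oxygen-regulated HIF-1 subunit, is controlled mainly at the level of its protein, which was not measured here. Its mRNA had medians of 113, 115 and 133 CPM, and it was not called with IL4_IL13 (-0.10 ± 0.10, adjusted p = 0.418). With added TNFa it was 0.27 ± 0.10 higher (adjusted p = 0.0283). That call ended with library totals alone (0.06, adjusted p = 0.593), without the filter on low counts (adjusted p = 0.0783) and without IL4_IL13 replicate 6, IL4_IL13_TNFa replicate 1 or IL4_IL13_TNFa replicate 2 (adjusted p = 0.0674, 0.0619 and 0.0622). For the 3 cytokines against Control its 0.17 ± 0.10 missed the threshold (adjusted p = 0.132) and passed it with the replicate block (adjusted p = 0.0345) and without Control replicate 1 (0.31, adjusted p = 4.45e-05).

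Other genes of the response to low oxygen were mixed. Of 22 other hypoxia response genes tested 6 rose and 8 fell with IL4_IL13, 5 rose and 11 fell with added TNFa, and 7 rose and 12 fell for the 3 cytokines against Control. Over all genes tested 29.3% were called higher and 29.7% lower with IL4_IL13, 30.3% and 29.3% with added TNFa, and 36.4% and 37.3% for the 3 cytokines against Control. The counts with IL4_IL13 are near these shares, and neither this list nor those that follow was tested as a whole. Bhlhe40, a transcriptional repressor, rose 19.9-fold with IL4_IL13, from 12 ± 5.03 to 239 ± 14.2 CPM (SD, n = 6; log2 fold change 4.31, adjusted p = 4.73e-13), and was at 631 ± 21.6 CPM with added TNFa. Ak4, a mitochondrial adenylate kinase, rose with added TNFa from 6.38 ± 0.608 to 47.3 ± 4.94 CPM (log2 fold change 2.89, adjusted p = 1.92e-07). Vegfa, the vascular growth factor, went from 65.4 ± 15.8 CPM in Control to 30.1 ± 3.67 in IL4_IL13 and 10.4 ± 0.454 in IL4_IL13_TNFa, 6.31-fold lower than in Control (log2 fold change -2.66, adjusted p = 7.49e-12). Ankrd37 fell from 7.64 ± 0.802 to 0.849 ± 0.219 CPM with added TNFa (log2 fold change -3.15, adjusted p = 2.71e-11).

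Of 6 HIF subunits and oxygen-sensing genes tested, 1 rose in each comparison, and 3, 4 and 4 fell, beside 29.3% to 37.3% of all genes in each direction. The 1 was Vhl, which targets HIF-alpha for destruction, at 35.7 ± 3.64 CPM in Control, 56.6 ± 7.47 in IL4_IL13 and 82.4 ± 2.49 in IL4_IL13_TNFa (log2 fold changes 0.66 and 0.54, adjusted p = 1.48e-06 and 1.06e-05). Epas1, which codes for HIF-2alpha, fell from 15.8 ± 1.93 to 4.04 ± 0.601 CPM with added TNFa (log2 fold change -1.96, adjusted p = 1.05e-09). Cited2, which competes with HIF-1 for its coactivator, was lower with IL4_IL13, at 74.2 ± 6.47 against 146 ± 14.0 CPM (log2 fold change -0.98, adjusted p = 1.51e-09).

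**Figure D5:**
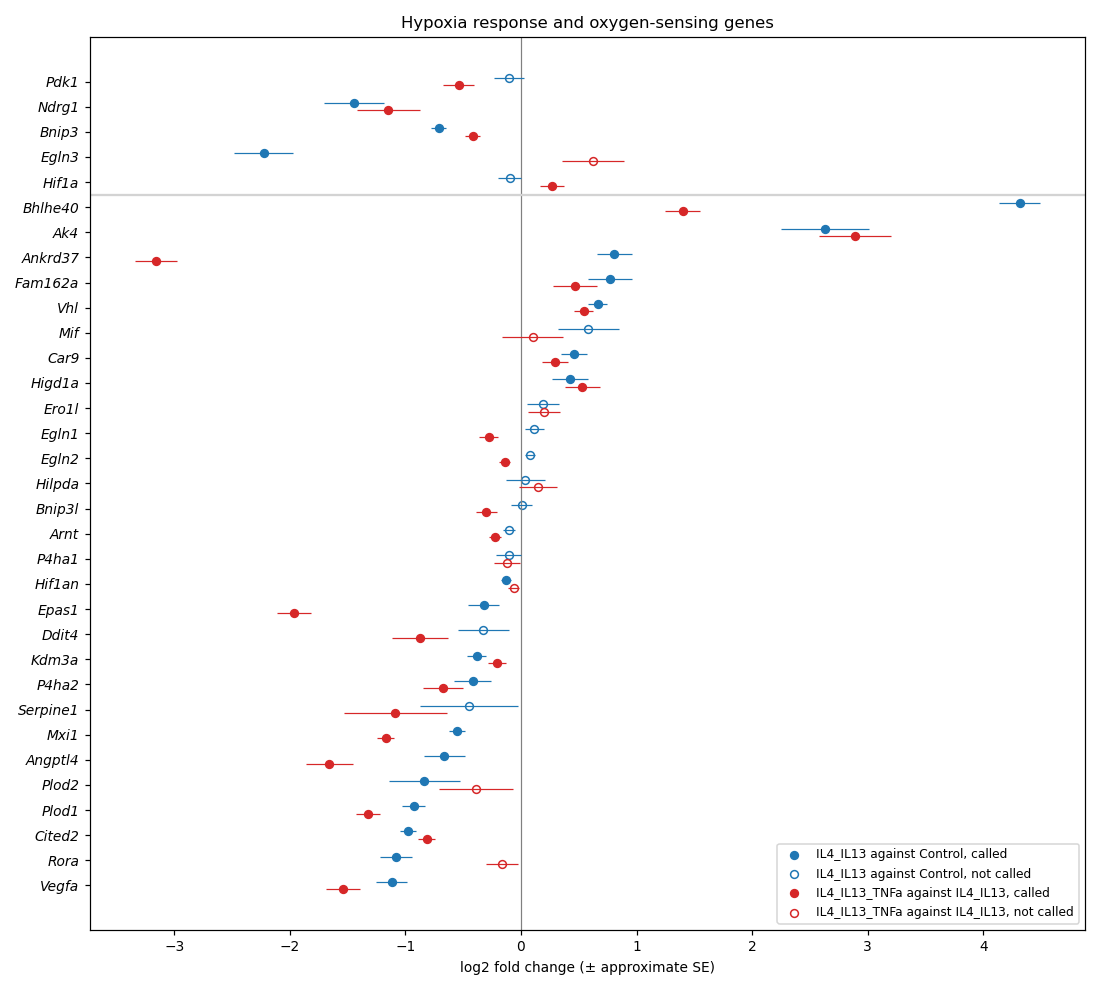
Log2 fold change of the 5 hypoxia members (above the grey line) and of 28 other hypoxia and oxygen-sensing genes, with approximate standard errors. Blue is IL4_IL13 against Control and red is added TNFa; filled circles have an adjusted p under 0.05. Bhlhe40 lies at 4.31 and 1.40, and Vegfa at -1.12 and -1.54.

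Of 16 other glycolysis genes tested, 6 rose and 5 fell with IL4_IL13, 7 rose and 5 fell with added TNFa, and 7 rose and 6 fell for the 3 cytokines against Control, beside 29.3% and 29.7%, 30.3% and 29.3%, and 36.4% and 37.3% of all genes. The glucose transporter genes Slc2a6 and Slc2a3 moved apart. Slc2a6 stood at 115 ± 27.1 CPM in Control, 155 ± 31.1 in IL4_IL13 and 638 ± 19.4 in IL4_IL13_TNFa (log2 fold change 2.04 with added TNFa, adjusted p = 2.67e-09). Slc2a3 stood at 21.2 ± 2.87, 9.32 ± 2.69 and 3.08 ± 0.645 CPM (log2 fold change -1.60 with added TNFa, adjusted p = 3.79e-07). Aldoc, a second aldolase, fell with IL4_IL13 from 35.9 ± 6.15 to 12.7 ± 1.40 CPM, and Eno2, a second enolase, rose from 2.94 ± 0.631 to 5.0 ± 0.850 CPM (log2 fold changes -1.50 and 0.76, adjusted p = 4.38e-10 and 0.000351).

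At the entry of pyruvate into the mitochondria 13 genes were tested. With IL4_IL13 8 rose and 2 fell, with added TNFa 7 rose and 2 fell, and for the 3 cytokines against Control 10 rose and 3 fell, beside 29.3% and 29.7%, 30.3% and 29.3%, and 36.4% and 37.3% of all genes. Mpc1, a subunit of the pyruvate carrier, rose 2.05-fold with added TNFa, from 9.40 ± 0.822 to 19.3 ± 0.550 CPM (log2 fold change 1.04, adjusted p = 5.61e-10). Dlat, the acetyltransferase of pyruvate dehydrogenase, was 2.19-fold higher for the 3 cytokines than in Control, at 102 ± 3.13 against 46.4 ± 7.41 CPM (log2 fold change 1.13, adjusted p = 9.7e-11). Pdk2, a second pyruvate dehydrogenase kinase, was at 22.9 ± 6.65, 15.1 ± 2.75 and 10.7 ± 1.14 CPM and fell by 0.60 and by 0.50 on the log2 scale (adjusted p = 0.0102 and 0.0319). Pdp1, the phosphatase that undoes this kinase step, rose with IL4_IL13 from 21.9 ± 1.44 to 39.9 ± 2.56 CPM (log2 fold change 0.86, adjusted p = 2.89e-10).

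Of 7 other pentose phosphate genes, 4 rose and 1 fell with IL4_IL13, 3 rose and 1 fell with added TNFa, and 3 rose and 1 fell for the 3 cytokines against Control, beside the same shares of all genes, 29.3% to 37.3% in each direction. H6pd, the dehydrogenase of the endoplasmic reticulum, fell with IL4_IL13 from 155 ± 23.9 to 106 ± 9.84 CPM (log2 fold change -0.54, adjusted p = 2.22e-05). Dera, a deoxyribose phosphate aldolase, rose with added TNFa from 31.5 ± 2.04 to 43.7 ± 1.41 CPM (0.47, adjusted p = 2.62e-05). Prps1 and Prps2, which turn ribose 5-phosphate into the precursor of nucleotides, both rose with IL4_IL13 (0.70 and 0.61, adjusted p = 0.011 and 0.000262; 1.02 and 0.75 without Control replicate 1). With added TNFa Prps2 fell (-0.73, adjusted p = 3.19e-05), and the -0.26 of Prps1 was not called (adjusted p = 0.324).

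Of 11 genes of the glycogen and hexosamine branches, 2 rose and 5 fell with IL4_IL13, 5 rose and 2 fell with added TNFa, and 6 rose and 4 fell for the 3 cytokines against Control, beside 29.3% to 37.3% of all genes in each direction. Without Control replicate 1, 4 rose with IL4_IL13, beside 35.5% of all genes. Gbe1, the glycogen branching enzyme, rose 4.09-fold with added TNFa, from 14.5 ± 2.2 to 59.4 ± 6.90 CPM (log2 fold change 2.03, adjusted p = 1.48e-09). The glycogen phosphorylase gene Pygl fell with IL4_IL13 (-0.84, adjusted p = 0.000188), and Pygb, another, with added TNFa (-0.59, adjusted p = 3.34e-08). Gyg, the primer of glycogen, was lower for the 3 cytokines than in Control, at 35.1 ± 2.17 against 72.4 ± 11.9 CPM (-1.05, adjusted p = 5.2e-09), and Ugp2 rose with IL4_IL13 (0.23, adjusted p = 0.0185).

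The serine branch, which leaves glycolysis at 3-phosphoglycerate, moved in opposite directions in the 2 steps. Of its 6 genes 5 rose with IL4_IL13 and none fell, and 5 fell with added TNFa and none rose, beside 29.3% and 29.7%, and 30.3% and 29.3%, of all genes called higher and lower. Phgdh, its first enzyme, stood at 5.49 ± 4.99 CPM in Control, 45.5 ± 12.9 in IL4_IL13 and 2.45 ± 0.659 in IL4_IL13_TNFa, with log2 fold changes of 3.04 (adjusted p = 1.11e-06; 3.71 without Control replicate 1) and -4.21 (adjusted p = 3.69e-08). Psat1, the next enzyme, stood at 25.8 ± 22.9, 84.3 ± 21.7 and 29.7 ± 2.71 CPM (1.71 and -1.51, adjusted p = 0.000381 and 0.000952; the first 2.36 without Control replicate 1). Mthfd2, a mitochondrial enzyme of one-carbon metabolism, rose with IL4_IL13 (1.32, adjusted p = 0.00805, or 2.18 without Control replicate 1) and its -0.25 with added TNFa was not called (adjusted p = 0.599). For the 3 cytokines against Control 1 of the 6 was higher and 2 were lower, beside 36.4% and 37.3% of all genes. Without Control replicate 1, 3 were higher and none lower, beside 39.0% and 38.7% of all genes. The lower ones were Phgdh (-1.17, adjusted p = 0.0142) and Psph, the last enzyme of serine synthesis (-0.56, adjusted p = 0.0485), and neither was called without that library (adjusted p = 0.0723 and 0.211).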

How the data were processed

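Per the labels' protocols, poly(A) RNA went into strand-specific libraries made with the NEBNext Ultra II Directional kit. The authors deposited raw counts per gene (whole numbers with unequal totals). FastQC 0.11.5, RSEM 1.3.0, STAR (2.5.2, 2.5.2b), featureCounts 1.5.1 and bcl2fastq 2.20.0.422 are named with GRCm38 (mm10), per the submitters' processing notes. Not given in the sources used here were their roles, the annotation, the strand setting and the handling of reads that match several genes. IDs were matched to GENCODE M21 on GRCm38 (48348 of 48794 rows). All 45 pairs of same-group libraries differed beyond counting noise (chi-square at least 2.72 times its degrees of freedom).

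Genes were filtered with filterByExpr of edgeR 4.0.16 (R 4.3.3, minimum count 10), scaled by TMM and fitted over all 18 libraries (robust quasi-likelihood), with Benjamini-Hochberg adjustment over 13177 genes at 0.05. A ± after a log2 fold change is an approximate SE, the absolute change over the square root of F; other ± are SDs. CPM values use TMM-scaled library sizes. Lengths are merged exons. Alternatives were DESeq2 1.42.0 (test and size factors), limma 3.58.1 voom, library totals, no filter, a filter of 5 CPM in 6 libraries, a replicate block, only the libraries compared, principal-transcript lengths for the shares (chosen after seeing the data) and libraries left out. The scripts were tested on simulated counts. Same-numbered libraries deviated together, with r of 0.128 to 0.671 in 18 pairs. Pairs of different number across groups had r of -0.497 to 0.306, so the ranges overlapped. The pairing was seen in the data and is given by no label. The main tests are unpaired, and the paired ones are alternatives. The 31 genes and the gene lists were chosen with earlier results of these data known. Beyond the 31, a list's largest called rise and fall at 5 CPM or more were named, and any gene of a list of 8 or fewer. Slc16a7, Pfkfb1 and Pfkfb2 were named outside this rule.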

Additional observations from a re-analysis of the deposited data

Results flagged for a closer look

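Among 93 sets of 6 levels (31 genes in 3 groups) 27 held a library far from the other 5, and among 24 sets of isozyme shares 3 did. Chance gives about 5%. Of these, 23 levels and all 3 shares were those of Control replicate 1. In that library Slc2a1 stood at 104 CPM, Hk1 at 201, Hk3 at 172, Gpi1 at 551, Pfkl at 103, Pfkp at 157, Aldoa at 1564 and Tpi1 at 359.9 CPM, each above the other controls, and Pfkm at 20.3 CPM, below them. In the lower part of glycolysis Gapdh stood at 169 CPM, Pgk1 at 37.9, Pgam1 at 23.7, Eno1 at 361, Pkm at 3217, Ldha at 600.2, Slc16a1 at 27.4 and Slc16a3 at 101 CPM, each above the other controls. The same held for Pgd at 714 CPM, Tkt at 509, Taldo1 at 521, Rpia at 14.9, Pdk1 at 91.8 and Hif1a at 176 CPM. Its shares were 35.3% for Pfkp within its family and 34.6% for Pfkfb3 within its pair with Pfkfb4, above the other controls. The share of Pfkm within its family was 18.3%, below them.

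The other 4 were single genes in other libraries: Pfkfb3 at 36.8 CPM in Control replicate 5, Tpi1 at 261 CPM in IL4_IL13_TNFa replicate 6, Pgd at 713 CPM in IL4_IL13 replicate 6, each above its group, and Bnip3 at 7.50 CPM in IL4_IL13_TNFa replicate 3, below its group.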

How the results depend on the processing

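The counts of the 31 genes called stayed within 1.5 times under every alternative run but 1: with library totals alone, 8 rather than 5 were lower with added TNFa, and of the other pathway genes 17 rather than 28 were higher. With that scaling the added lower calls among the 31 were Hk1, Pfkfb3 and Slc16a1. That scaling moved the median log2 fold change of all genes to -0.20 with added TNFa and -0.27 for the 3 cytokines against Control, and the share of calls that were higher from 50.9% to 27.5% and from 49.4% to 32.7%. With the replicate block 17, 20 and 22 of the 31 were higher in the 3 comparisons. Leaving out single libraries gave 14 to 19 genes higher with IL4_IL13, 15 to 20 with added TNFa and 20 to 24 for the 3 cytokines against Control. Of the other pathway genes, 32, 28 and 35 were higher over all libraries. With a library left out, 30 to 40, 25 to 32 and 33 to 40 were. Those lower numbered 24, 30 and 32, and 21 to 24, 26 to 31 and 30 to 33 with a library left out. Leaving out all 3 libraries numbered 1 gave 19, 20 and 24 higher and 8, 6 and 7 lower, in the same order.

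Apart from the Hk2 share, signs turned only for genes not called over all libraries. Tpi1 with added TNFa turned to 0.00163 without the filter, 0.00125 with the replicate block, -0.0425 to 0.0291 with a library left out and 0.041 without the 3 libraries numbered 1, and against Control to -0.0334 with library totals. Pkm with IL4_IL13 ran from -0.134 to 0.0986 with a library left out, the latter without Control replicate 1, and was 0.0655 without the libraries numbered 1. With library totals Pkm turned to -0.0712 (added TNFa) and -0.2 (3 cytokines against Control), and the latter ran from -0.00371 (without Control replicate 5) to 0.234. Slc16a3 with IL4_IL13 turned to 0.0285 (no filter), 0.0768 (limma voom), 0.048 (replicate block), -0.101 to 0.312 (a library left out) and 0.256 (without those numbered 1). Pdk1 and Hif1a with IL4_IL13 ran from -0.156 to 0.0828 and from -0.138 to 0.0381 with a library left out, the highest without Control replicate 1, and were 0.0445 and 0.0135 without those numbered 1. Hif1a for the 3 cytokines turned to -0.0762 with library totals.

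The replicate block changed no call of the 31 genes other than those given for Hk2, Pgam1, Eno1, Slc16a3, Egln3 and Hif1a. Paired by number (exact sign-flip test), the Hk2 share against Control, -4.61 points with IL4_IL13 and -3.15 with the 3 cytokines, and the Pfkl share with added TNFa, 2.94, missed the threshold (adjusted p = 0.0625). On counts not divided by length the Pfkl value was 1.11 and per kilobase of the principal transcript 1.33, where the Hk2 share for the 3 cytokines was -0.486, and that share turned to 0.305 on counts not divided by length. The Hk2 share with added TNFa was 1.65 without the libraries numbered 1 (adjusted p = 0.0635). The cause of these changes was not tested.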
